A study of Gallus gallus with 77 samples.

Results

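The comparison described here is the early against the later response of the cultured chick cochlea to a laser wound: for every gene on a transcription factor array, the log2 ratio of laser-lesioned to unlesioned cultures at 2 hrs minus the same ratio at 30 min. It rests on 40 of the 77 arrays of the series, 25 at 30 min and 15 at 2 hrs, which come from 2 biological replicates at each time point. All 1507 gene names other than the control probes were eligible, and 1504 were tested, because 3 (GASC1, HOXC10 and SP1) had a mean raw signal under 1000 at every time point.

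Epithelium that holds the hair cells and their supporting cells was isolated from White Leghorn chick cochleae, cut up and grown on fibronectin until semi-confluent. Linear wounds were then cut with a pulsed laser microbeam, and the control cultures were taken out of the incubator for the same time but not wounded. At 30 min or 2 hrs afterwards, 4 lesioned and 4 unlesioned cultures were pooled into 1 biological sample, and their amplified RNAs were labelled with Cy3 and Cy5 and hybridized together, with the dyes swapped on part of the arrays. Each culture was harvested once, so the time points are different cultures, and in such pooled cultures fewer cells of a type and less RNA per cell cannot be told apart.

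After an epithelial wound, immediate early genes such as EGR1 and the AP-1 factors are switched on first, and the proteins they encode then act on later genes. Birds, unlike mammals, replace lost cochlear hair cells from supporting cells, which makes the transcription factors of these supporting cells of interest. The probes are human coding sequences used across species, and names are given as the array gives them. A chicken gene with exactly the same symbol was found in the RefSeq annotation for 752 of the 1504 tested names. Many array names are old, so an unmatched name need not mean a missing gene. Whether such a name has a chicken counterpart was not tested.

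Some properties of the arrays bear on every value below. The median 30 min array had a raw signal 5.54 times its local background (range 2.86 to 35.1) and the median 2 hrs array 3.06 times (2.29 to 4.04). The file headers name 4 days for the 30 min arrays and 3 days for the 2 hrs arrays with none in common, so that day and time point cannot be told apart; each of these 7 days holds both dye orientations. Control probes had a median signal of 901 at 30 min and 1812 at 2 hrs, and 413 of the 1504 genes lay under the latter at 2 hrs. Of 24 tested marker entries for hair cells, supporting cells, mesenchyme, neurons, blood and melanocytes or glia, 15 were above the median control probe at both time points and 9 were under it at 2 hrs, so these signals could not be used to check which cell types were present. Of the 50 genes whose difference is given below, 8 were under it at 2 hrs, namely NFIL3, BMI1, EGR1, ATF2, DDIT3, MXI1, GATA3 and CDX1, and their 2 hrs ratios are close to background.

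The mean ratios at 30 min and 2 hrs had opposite signs for 869 of 1504 genes, or 57.8%, but few differences were large against the spread of the replicates. The ratio differed at an unadjusted p under 0.05 and by over 1.2-fold (hereafter called) for 204 of 1504 genes, or 13.6%, of which 130 (8.64%) were higher at 2 hrs and 74 (4.92%) lower, in a limma fit over 1 value per biological replicate. The surplus of higher genes depended on the samples: without the first 30 min replicate 50 were higher and 70 lower, and with 1 orientation alone both directions were equal, 161 each in Cy3 and 62 each in Cy5. After Benjamini-Hochberg adjustment over all genes 2 remained, or 0.133%, TGFB1I1 and DUX4, both higher at 2 hrs. The median difference over all genes was -0.02, and the median standard error of a difference was 0.12 on the log2 scale. Replicates resembled each other little: across genes their ratios correlated at r = 0.21 at 30 min and at r = 0.05 at 2 hrs. Without background correction 150 genes were called, 111 higher and 39 lower, a share of 74.0% higher against 63.7%. In the authors' table of uncentred ratios the median of all genes was at -0.34, and 594 of 596 calls were lower.

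TGFB1I1, also known as Hic-5, is a focal adhesion adaptor and nuclear receptor coactivator that responds to TGF-beta. TGFB1I1 had no match among the chicken symbols. Its ratio was -0.32 and -0.25 in the 30 min replicates and 0.34 and 0.35 in the 2 hrs replicates, a difference of 0.63 ± 0.11 (SE, n = 2 replicates each; limma adjusted p = 0.0443). All 4 values lay on the side of 0 of their time point, as did the averages of 4 of 4 days at 30 min and 3 of 3 days at 2 hrs. Day averages, here and for the genes below, regroup the arrays of the replicates and are not separate support. The arrays overlapped: 18 of 25 were below 0 at 30 min and 9 of 15 above 0 at 2 hrs. In the orientation with the lesioned RNA in Cy3 the difference was 0.94, in the other 0.32, and in the latter the 2 hrs ratio itself stayed below 0, at -0.10.

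The human DUX4 gene encodes a double homeobox transcription factor. DUX4 had no match among the chicken symbols either, and what its probe measured in chick was not tested. The ratio was -0.50 and -0.27 at 30 min and 0.29 and 0.30 at 2 hrs, a difference of 0.68 ± 0.12 (limma adjusted p = 0.0443). Here both orientations gave nearly the same difference, 0.64 and 0.72, but at different levels. The DUX4 ratio went from -0.08 to 0.56 with the lesioned RNA in Cy3 and from -0.69 to 0.03 with it in Cy5. The 30 min level, however, was uneven over the days, with -0.75 on the first, 0.05 on the second, -0.36 on the third and -0.09 on the fourth. Without the 6 arrays of 30 min day 1, which belong to replicate 1, the DUX4 difference was 0.46 and no gene of the array passed the adjusted threshold. That loss was not particular to this day. No gene passed either without 30 min day 2 or 3 or without 2 hrs day 1 or 2. Without 30 min day 4 there were 4 such genes, and without 2 hrs day 3 there were 5. ICBP90 (UHRF1, which binds hemimethylated DNA and recruits the maintenance methyltransferase) had the same form as DUX4. It stood at -0.50 and -0.19 at 30 min and at 0.41 and 0.21 at 2 hrs, a difference of 0.65 ± 0.13 (limma adjusted p = 0.0841), with 0.55 and 0.75 in the orientations and 0.48 without the first day. The ICBP90 ratio went from -0.03 to 0.52 in Cy3 and from -0.65 to 0.10 in Cy5.

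**Figure D1:**
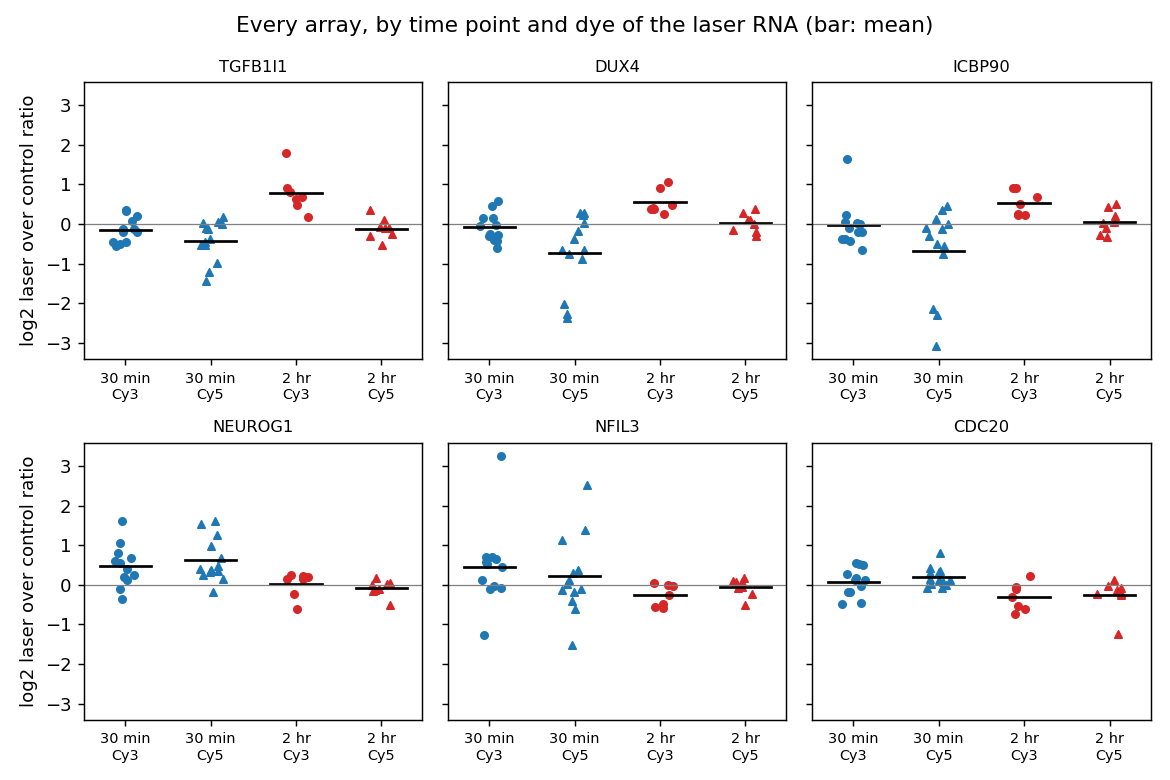
Log2 laser over control ratio (y axis) on every 30 min (blue) and 2 hrs (red) array for 6 genes, split by the dye that carried the lesioned RNA (circles Cy3, triangles Cy5); bars are means. For DUX4 and ICBP90 the lowest of the 30 min arrays, at -2.37 and -3.09, have the lesioned RNA in Cy5, and for TGFB1I1 the high 2 hrs arrays have it in Cy3.

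The 10 largest rises by the rule used, which asked for a call, for replicates that did not overlap between the time points (true of 43.2% of all genes) and for a difference of the same sign in both orientations, ran from 0.57 to 0.74. The first of them were CDO (0.74 ± 0.19) and KCNN2 (0.70 ± 0.20), the latter a small-conductance calcium-activated potassium channel that hair cells use at their efferent synapse. KCNN2 had a spot at the scanner ceiling on 4 of the 30 min arrays and none at 2 hrs, so its 30 min values are uncertain. CDO was at -0.84 and -0.33 at 30 min and at 0.33 and -0.02 at 2 hrs, and KCNN2 at -0.94 and -0.19 and then at 0.31 and -0.03. Neither reversed in every replicate, since the second 2 hrs replicate was just below 0 in both. Nor did either cross 0 within an orientation. In Cy3 CDO went from 0.22 to 0.50 and KCNN2 from 0.25 to 0.55. In Cy5 CDO went from -1.39 to -0.19 and KCNN2 from -1.37 to -0.28. Their 30 min values came mainly from the first day, with -1.36 for CDO and -1.24 for KCNN2, and without it the differences fell to 0.38 and 0.42.

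SNAPC4 and SNAPC5 encode subunits of the complex that activates small nuclear RNA genes, and both reversed upwards. SNAPC4 was at -0.15 and -0.17 at 30 min and at 0.30 and 0.55 at 2 hrs, a difference of 0.59 ± 0.12 (limma unadjusted p = 0.00021, adjusted p = 0.0841). That difference was 1.08 in the Cy3 orientation and 0.09 in the Cy5 orientation, so its size rests on the former. SNAPC5 went from -0.25 and -0.05 to 0.15 and 0.10, a smaller difference of 0.27 ± 0.12 with 0.38 and 0.16 in the orientations. Over 32 alternatives SNAPC5 kept its sign in 30 but its call in only 9, against 29 for the SNAPC4 call. This pair was picked after its values were seen, and other subunits of the complex are not given here.

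IHH, IGFBP1 and ETV5 were picked from the rises after their values were seen. IHH, the hedgehog ligand Indian hedgehog, was at -0.21 and -0.18 at 30 min and at 0.42 and 0.25 at 2 hrs. The difference was 0.53 ± 0.12 (limma unadjusted p = 0.000537), of the same sign in both orientations (0.76 and 0.30). Its day averages were below 0 on all 4 days at 30 min and above 0 on all 3 days at 2 hrs. In Cy5 the IHH ratio did not cross 0, going from -0.35 to -0.06. IGFBP1, a secreted binding protein of insulin-like growth factors, was at -0.29 and -0.27 and then at 0.28 and 0.38, a difference of 0.61 ± 0.15. Within neither orientation did IGFBP1 cross 0: it went from 0.07 to 0.87 in Cy3 and from -0.63 to -0.22 in Cy5. ETV5, an ETS factor of the FGF pathway, changed from -0.60 and -0.21 to 0.27 and 0.07, a difference of 0.58 ± 0.14. Of these, the ETV5 difference depended most on the first 30 min day, without which it was 0.37, against 0.50 for IHH and 0.51 for IGFBP1. HSHPX5 (0.61 ± 0.15) and TRIM (0.57 ± 0.17) complete the 10 and were at 0.37 and 0.40 without that day.

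**Figure D2:**
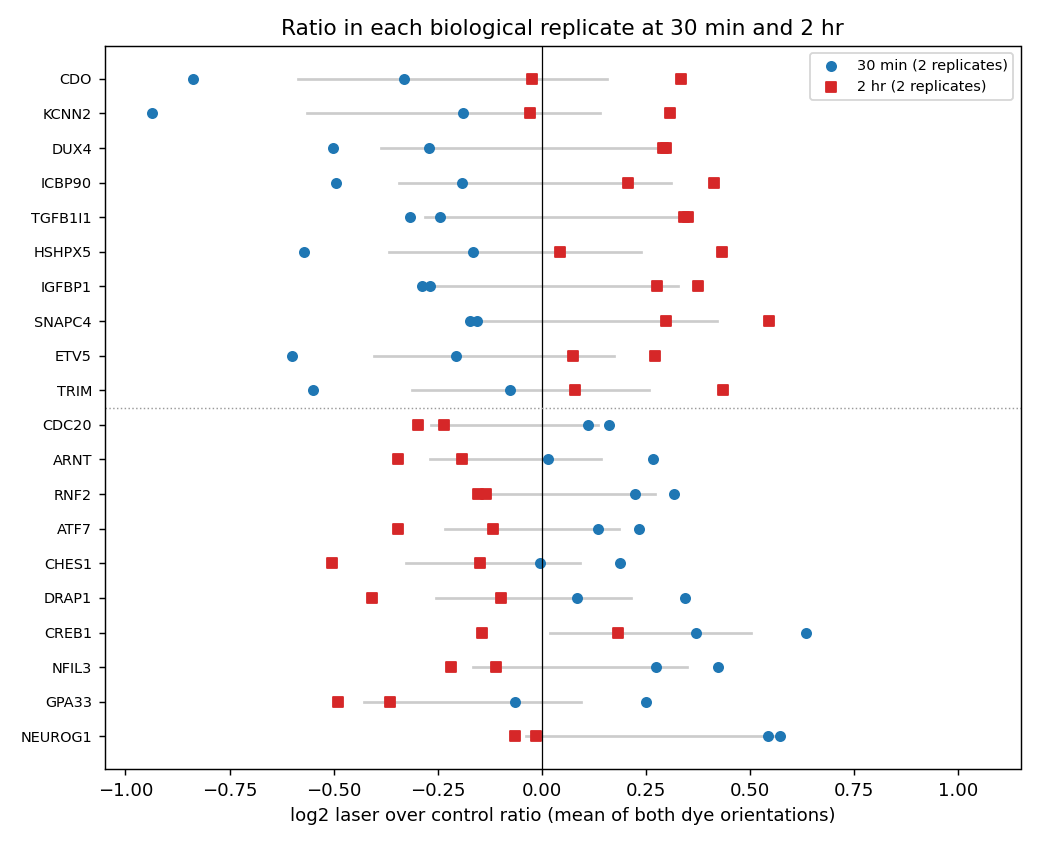
Log2 laser over control ratio (x axis) in each of the 2 biological replicates at 30 min (blue circles) and 2 hrs (red squares) for the 10 largest rises (above the dotted line) and the 10 largest falls; grey lines join the means. TGFB1I1, DUX4 and IGFBP1 have 2 hrs replicates within 0.10 of each other and clear of 0, whereas CDO, KCNN2 and CREB1 have 2 hrs replicates on opposite sides of 0. Each value averages both dye orientations, and IGFBP1 crossed 0 in neither of them.

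Among falls with the same sign in both orientations the largest was that of NEUROG1, the proneural factor of inner ear neurons; EGR1, described below, fell as far without meeting that condition. Its ratio was 0.54 and 0.57 in the 30 min replicates and -0.06 and -0.01 in the 2 hrs replicates, a difference of -0.60 ± 0.14 (limma unadjusted p = 0.000786, adjusted p = 0.148). The 30 min ratio was above 0 on 22 of 25 arrays, on all 4 days and in both orientations (0.48 and 0.63), while at 2 hrs it lay near 0, with 8 of 15 arrays above and 7 below. For NEUROG1 the change is thus one from a raised ratio to none rather than to a lowered one, although the rule counts it as reversing. Its raw signal, both channels together, averaged 9769 at 30 min and 2274 at 2 hrs.

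GPA33 (-0.52 ± 0.17) came next, and then NFIL3 and CREB1, both basic leucine zipper factors. GPA33 went from 1.48 to 0.73 in the Cy3 orientation and from -1.29 to -1.59 in the Cy5 orientation. Its gap between the orientations was thus larger than its fall. NFIL3, a transcriptional repressor of the circadian and immune systems, stood at 0.27 and 0.42 at 30 min and at -0.11 and -0.22 at 2 hrs, a difference of -0.51 ± 0.12, with -0.74 and -0.29 in the orientations. Single 30 min arrays of NFIL3 ranged widely, from -1.53 to 3.26 with a median of 0.13. CREB1, the effector of cAMP and calcium signals, was at 0.63 and 0.37 and then at 0.18 and -0.14, a difference of -0.48 ± 0.14. It did not reverse, since 1 of the 2 hrs replicates stayed above 0.

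Other falls with close replicates were RNF2 and CDC20. RNF2, the ubiquitin ligase of Polycomb repressive complex 1, was at 0.23 and 0.32 and then at -0.13 and -0.15, a difference of -0.41 ± 0.10. CDC20, which activates the anaphase-promoting complex, was at 0.16 and 0.11 and then at -0.23 and -0.30, a difference of -0.40 ± 0.11. For each of these genes 18 of 25 arrays were above 0 at 30 min and 13 of 15 below 0 at 2 hrs, and both orientations changed sign. The 10 also held the TBP-binding corepressor subunit DRAP1 (-0.47 ± 0.15), the forkhead factor CHES1 (-0.42 ± 0.14), ATF7 (-0.42 ± 0.12) and ARNT (-0.41 ± 0.13), the dimer partner of the hypoxia and dioxin receptor factors. GPA33 and CHES1 did not reverse, each having 1 of its 30 min replicates below 0. The CHES1 fall was -0.04 in the Cy3 orientation and -0.80 in the Cy5 orientation. Raw signals at 2 hrs were only slightly above the median control probe (1812) for CHES1 (1988), RNF2 (1948), CDC20 (1939), ATF7 (1914) and ARNT (1873).

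A gene was counted as reversing when it was called, when its mean ratios at 30 min and 2 hrs had opposite signs, and when each of the 4 replicates had the sign of its time point. This held for 128 genes, or 8.51%, of which 84 (5.59%) went from below 0 to above and 44 (2.93%) from above to below. The sign condition on the 4 replicates alone, with no test, held for 298 genes, or 19.8%, and the means alone had opposite signs for 869, or 57.8%. Of the 128, the difference had the same sign in both dye orientations for 103 (6.85%), 70 upwards (4.65%) and 33 downwards (2.19%), and opposite signs for 25. The 70 ran from 0.26 to 0.68 with a median of 0.41, and the 33 from -0.60 to -0.27 with a median of -0.33. A chicken gene of the same symbol was found for 24 of the 70 (34.3%) and 16 of the 33 (48.5%), against 50% of all tested genes.

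A stricter reading asks whether the ratio itself crosses 0 in each orientation, where a constant dye bias of the probe counts against it. Of the 128 reversing genes 40 met this (2.66% of all genes), 61 crossed 0 with the lesioned RNA in Cy3 alone, 13 with it in Cy5 alone and 14 in neither taken by itself. Among the 29 that went upwards (1.93%) were DUX4, ICBP90, TRIM, BC002881, BCAN, CDX2, CERD4, CREG, CRSP8, ELAVL2, FACTP140, KIAA0972, KRT12, LOC51036, MADH1, NFRKB, NPTXR, NR2E3, OAZ, PPARD, RNF24, SALL3, SNAPC5, SRCAP, TONDU, TRIP11, ZFP93 and ZNFN1A1. The 11 that went downwards (0.731%) were NFIL3, RNF2, ARNT, CDC20, CDX1, FASTK, GCMB, HSF2BP, NR1I2, THBS3 and ZNF288. TGFB1I1, NEUROG1 and SNAPC4 were not among them. Several of the genes named had a 2 hrs signal under the median control probe (1812). These were KIAA0972 (1142), TRIP11 (1509), CREG (1558), FACTP140 (1562), SRCAP (1657), HSF2BP (1705), NFIL3 and CDX1. Some crossings were small: at 2 hrs TONDU reached 0.012 in Cy5, ZNFN1A1 0.012 in Cy3, and PPARD 0.02 in Cy3 and 0.04 in Cy5. DUX4 reached only 0.03 in Cy5 at 2 hrs, and ICBP90 was only at -0.03 in Cy3 at 30 min.

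Agreement between the orientations over the array as a whole was poor. The 2 hrs minus 30 min difference had the same sign in both for 644 of 1504 genes, or 42.8%, and across genes, which are not independent replicates, the differences of both orientations correlated at r = -0.18. Among called genes the share was 80.9% (165 of 204), and among those not called 36.8%, but a call requires a large average of both, so this share is partly set by the call. Calls made in 1 orientation and read in the other avoid that. Of 322 genes called on the arrays with the lesioned RNA in Cy3 alone, 123 (38.2%) had the same sign with it in Cy5, and of 124 called in Cy5 alone 36 (29.0%) had the same sign in Cy3. Of 36 genes called in each, 33 had opposite laser over control signs, which is the same sign of the Cy5 over Cy3 ratio.

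Sizes differed between the orientations as well. For the 70 upward genes the median difference was 0.54 in the Cy3 orientation and 0.25 in the Cy5 orientation, and for the 33 downward genes -0.46 and -0.25. The Cy3 difference was the larger one for 84 of these 103 genes in all, 60 upwards and 24 downwards, against 945 of all 1504. EGR1 shows the extreme of this: -1.31 in the Cy3 orientation and 0.11 in the Cy5 orientation. Averaging both orientations, as was done for every value here, removes a dye effect that is the same in both.

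**Figure D3:**
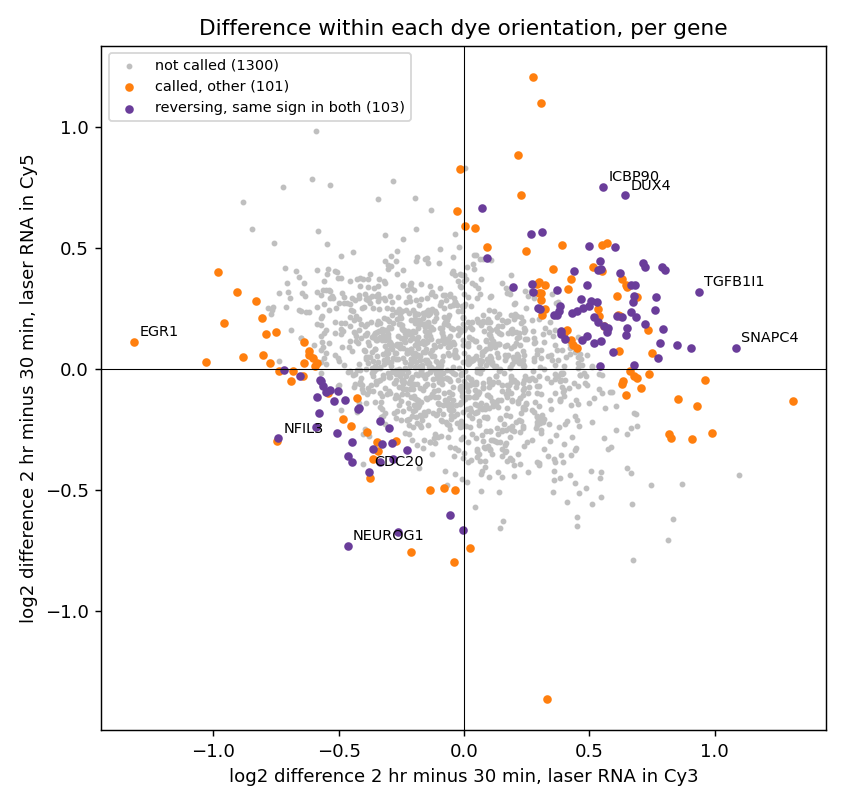
Log2 difference 2 hrs minus 30 min of each gene on the arrays with the lesioned RNA in Cy3 (x axis) and in Cy5 (y axis); grey, not called; orange, called but not reversing in both; purple, the 103 reversing genes with the same sign in both. The grey cloud leans towards opposite signs (r = -0.18 over all 1504 genes), and the purple genes fill the upper right and lower left corners by construction, further out along the Cy3 axis.

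The mean ratios at 1 hr and 3 hrs, which the rule did not use, place the reversing genes in the time course. The spread of those cultures did enter the fit that called the genes. In order of time, the medians of the 70 upward genes were -0.20, 0.03, 0.21 and 0.00. At 1 hr 44 of them (62.9%) were above 0, against 45.1% of all tested genes, and at 3 hrs 35 of 70, against 49.7%. For the 33 downward genes the medians were 0.15, -0.06, -0.17 and 0.00, with 9 (27.3%) above 0 at 1 hr and 16 (48.5%) at 3 hrs. Their sign at 1 hr thus tended to that of 2 hrs, while at 3 hrs they were spread about 0 like the rest of the array. TGFB1I1 was at 0.11 at 1 hr and -0.13 at 3 hrs, CDC20 at -0.01 and -0.03, and NEUROG1 at 0.20 and 0.20, so that NEUROG1 was low at 2 hrs between times of a mean above 0. SNAPC4 was at 0.19 at 1 hr and 0.31 at 3 hrs, its replicates above 0 at every time point after 30 min.

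**Figure D4:**
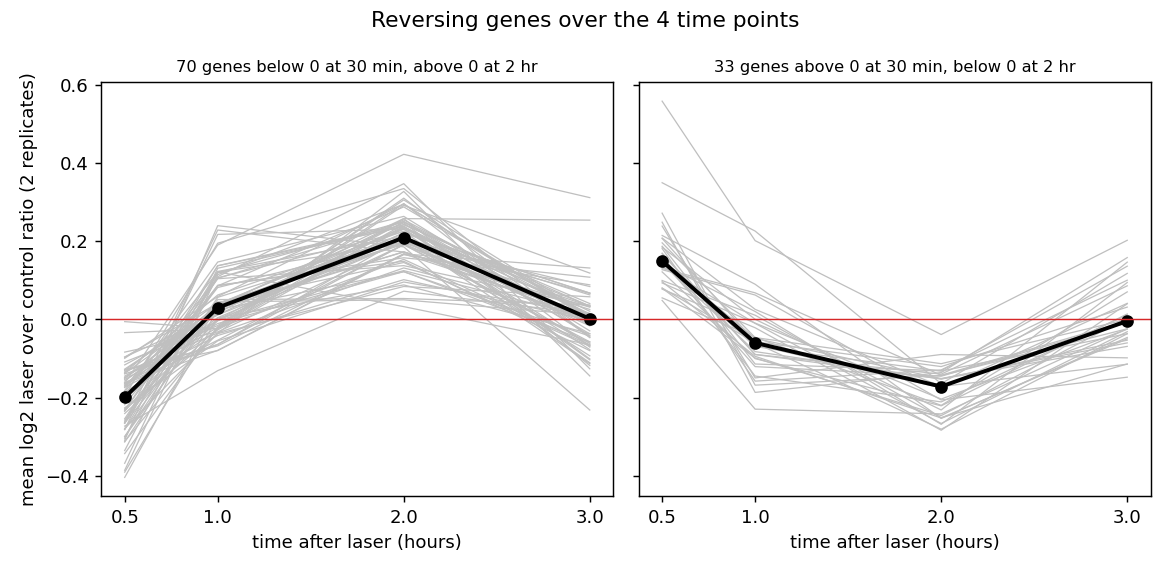
Mean log2 laser over control ratio of 2 replicates (y axis) at 0.5, 1, 2 and 3 hours (x axis) for the 70 genes reversing upwards (left) and the 33 reversing downwards (right) with the same sign in both orientations; grey lines are genes and the black line their median. The 30 min and 2 hrs levels were used to choose the genes; the 1 hr and 3 hrs medians, 0.03 and 0.00 on the left and -0.06 and 0.00 on the right, were not.

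Called genes were unevenly spread over signal. Of the 130 genes higher at 2 hrs, 81 lay among the 376 genes brightest at 30 min and 3 among the 376 dimmest, whereas of the 74 lower genes 15 were among the brightest and 24 among the dimmest. Median raw signals at 30 min were 2885 for the higher genes, 1406 for the lower ones and 1628 for all genes. The median difference of the dimmest 376 genes was -0.06 and that of the brightest 376 was 0.05. With the trend on signal removed from each replicate, 182 genes were called, 103 higher and 79 lower, of which 137 were among the 204, and none passed the adjusted threshold, with the same test in limma. Every one of the 204 had the same sign on all of its spots, against 73.1% of all genes, again partly set by the call.

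**Figure D5:**
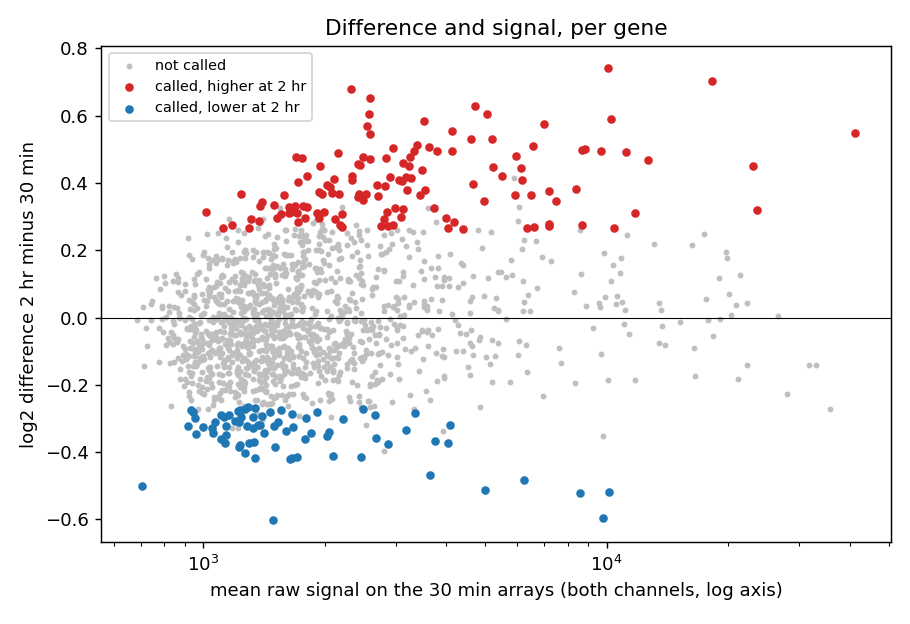
Log2 difference 2 hrs minus 30 min (y axis) of each gene against its mean raw signal on the 30 min arrays (x axis, log scale); red, called and higher at 2 hrs; blue, called and lower; grey, not called. Of the 130 red points 81 fall among the brightest 376 genes, at a signal of 2470 or more.

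Genes of the immediate early and AP-1 group moved in different directions. Of 27 tested, 4 were called (14.8%, against 13.6% of all genes), 3 higher and 1 lower, and the median difference was -0.03 against -0.02 for all genes. EGR1, the zinc finger factor induced within minutes of a stimulus, was at 0.33 and 1.06 at 30 min and at 0.17 and 0.02 at 2 hrs, a difference of -0.60 ± 0.18 (limma unadjusted p = 0.00493), all of it in the Cy3 orientation. NAB1, a corepressor that binds EGR factors, went the other way, from -0.33 and -0.20 to 0.41 and 0.05 (difference 0.50 ± 0.13), and reversed, although with 0.91 and 0.09 in the orientations. JUNB, an AP-1 subunit with a spot at the ceiling on 3 of the 30 min arrays, was at -0.35 and 0.08 and then at 0.28 and 0.36 (0.45 ± 0.14), and ARC, an activity-regulated cytoskeletal gene, at -0.24 and 0.00 and then at 0.20 and 0.18 (0.31 ± 0.12). Without the first 30 min day JUNB stood at 0.26 and ARC at 0.17, and neither was called. FOS differed by 0.02 ± 0.13, with replicates on both sides of 0 at both times.

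The cAMP-response and related bZIP factors (ATF, CREB and CEBP) had called members of 1 direction. Of 23 tested, 5 were called (21.7%, against 13.6% of all genes), all lower (4.92% of all genes): NFIL3, CREB1 and ATF7, given above, and DDIT3 and ATF2. DDIT3, the stress factor CHOP, was at 0.24 and -0.05 at 30 min and at -0.30 and -0.15 at 2 hrs (difference -0.32 ± 0.15), and ATF2 at 0.04 and -0.08 and then at -0.42 and -0.15 (-0.27 ± 0.12). Differences were negative for 19 of 23, against 54.4% of all genes, with a median of -0.09. ATF2 and DDIT3 were singled out after their values were seen, and without the first 30 min day neither was called. The 2 hrs signals of NFIL3 (1793), DDIT3 (1724) and ATF2 (1518) were under the median control probe (1812), and that of ATF7 (1914) was slightly above it. The direction shared by the called members thus rests largely on 2 hrs ratios close to background.

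Polycomb and Trithorax proteins, which keep developmental genes silent or active, showed the lowest median difference of the 12 gene groups, -0.16, with 16 of 18 below 0, against 54.4% of all genes. Called were 3 (16.7%, near the 13.6% of all genes), all lower, namely the Polycomb repressive complex 1 members RNF2, BMI1 and EDR1 (PHC1, a polyhomeotic protein). BMI1 was at 0.17 and -0.03 and then at -0.59 and -0.28 (-0.50 ± 0.14), and EDR1 at 0.13 and 0.03 and then at -0.32 and -0.24 (-0.36 ± 0.11). RNF2 differed in both orientations, whereas BMI1 (-1.03 and 0.03) and EDR1 (-0.72 and 0.00) differed in that with the lesioned RNA in Cy3. The signal of BMI1 was under that of the median control probe at 30 min too (706), so both of its ratios are close to background.

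TGF-beta and BMP effectors had 3 of 17 called (17.6%, near the 13.6% of all genes), 2 higher and 1 lower, with a median of 0.05. MADH1 (SMAD1), which carries BMP signals, was at -0.10 and -0.09 and then at 0.23 and 0.16 (0.29 ± 0.11), the same sign in both orientations, and above 0 on 13 of 15 arrays at 2 hrs. MADH3 (SMAD3), which carries TGF-beta signals, was at -0.23 and -0.09 and then at 0.21 and 0.30 (0.41 ± 0.18). The MADH3 ratio crossed 0 in neither orientation, going from 0.40 to 0.67 in Cy3 and from -0.71 to -0.16 in Cy5. The lower one was the homeobox factor DLX3 (-0.28 ± 0.13). Without the first 30 min day MADH1 was at 0.33 and still called, and MADH3 at 0.32 and not.

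The other groups had 0 to 10% called, against 13.6% of all genes, and in lists this small such shares differ by few genes. Notch targets and sensory bHLH factors had 1 of 17, NEUROG1. Paired-box factors and the eyes-absent network had 1 of 21, PAX2, the otic paired-box factor, at 0.09 and -0.12 and then at -0.46 and -0.15 (-0.29 ± 0.13), 0.01 in the Cy5 orientation. NF-kappaB, STAT and IRF factors, a list that also holds ARNT, had 3 of 30, ARNT and IRF5 (-0.34 ± 0.13) lower and IRF3 (0.29 ± 0.14) higher, cell cycle factors 2 of 25, MXI1 (-0.31 ± 0.12) and MAX (0.27 ± 0.12), which are partners in the MYC network, and clock factors 1 of 15, NR1D2 (0.37 ± 0.13), a nuclear receptor of the clock. None of 7 WNT effectors, 11 GATA factors and cofactors and 11 SOX factors was called in limma; at an unadjusted p under 0.05 alone 1 of them passed, SOX11 (p = 0.0258). Without the first 30 min day IRF5 (-0.25), IRF3 (0.15), MAX (0.06) and NR1D2 (0.25) were no longer called. GATA3 differed by 0.004 ± 0.15. Among the marker lists, BARHL1, a homeobox factor of hair cells, was lower (-0.37 ± 0.11, 0.03 in the Cy5 orientation), and the other 3 hair cell markers were not called. The neuron list had 1 of 4 called, NEUROG1. None of 6 supporting cell, 5 mesenchyme, 3 blood or 2 melanocyte and glia markers was called, against 13.6% of all genes, and these lists are too short to tell such shares apart. Differences were below 0 for all 4 hair cell, 4 neuron, 3 blood and 2 melanocyte and glia markers, against 54.4% of all genes. They were below 0 for 2 of 6 supporting cell and 2 of 5 mesenchyme markers.

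Pairs of related genes among the reversing set did not always move together. CDX1 went down, from 0.31 and 0.10 to -0.26 and -0.09 (-0.38 ± 0.12), and its caudal-type homeobox relative CDX2 up, from -0.40 and -0.13 to 0.18 and 0.14 (0.42 ± 0.13), each crossing 0 in both orientations. ARNT and ARNT2, by contrast, both went down, ARNT2 from 0.20 and 0.10 to -0.13 and -0.16 (-0.29 ± 0.11). Other genes that reversed upwards included CRSP8, a Mediator subunit (0.45 ± 0.12), TCEB2, elongin B (0.48 ± 0.12), and COPS5, the catalytic subunit of the COP9 signalosome (0.48 ± 0.11). In Cy5 the 2 hrs ratios of TCEB2 (-0.22) and COPS5 (-0.15) stayed below 0. TCEB2 differed by 0.79 in Cy3 and 0.17 in Cy5 and had its 30 min sign on only 2 of 4 days. Without the first 30 min day the TCEB2 difference was 0.27, still called. The proteoglycan brevican, BCAN (0.49 ± 0.12), and the nuclear receptor PPARD (0.37 ± 0.11) reversed upwards too. PPARD went from -0.30 and -0.37 to 0.03 and 0.03, so its change was from a lowered ratio to about none. Without the first 30 min day CDX2 (0.26) and PPARD (0.26) were no longer called. These genes were picked from the 103 after their values were seen.

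Over the days named in the headers, the sign of the time point was held on all 4 days at 30 min and all 3 at 2 hrs by 27 of the 70 upward and 14 of the 33 downward genes, against 97 of all 1504 genes, a share partly set by the choice of the genes on replicates that average the same arrays. With 1 value per day in place of 1 per replicate, 182 genes were called and 159 were among the 204. The Cy5 arrays of the first 30 min day had a median standard deviation over genes of 0.69, against 0.35 to 0.49 on the other 30 min days, and the Cy3 arrays of the first 2 hrs day one of 0.66, against 0.46 and 0.50 on the other 2 hrs days. Without the first 30 min day 195 genes were called, 99 higher and 96 lower, 149 of them among the 204; 96 reversed with the same sign in both orientations, 48 in each direction, and 69 of these were among the 103. Leaving out other days moved the latter count further: 57 genes reversed with the same sign in both orientations without the third 30 min day (35 among the 103), 67 without the second 2 hrs day (46 among the 103), 85 without the first 2 hrs day (58) and 155 without the third 2 hrs day (89). TGFB1I1 (0.61) and SNAPC4 (0.58) among the rises moved little without 30 min day 1. The same held for NEUROG1 (-0.63), NFIL3 (-0.52) and CDC20 (-0.39) among the falls. Of the 50 genes with a printed difference, 11 kept their sign but lost the call without 30 min day 1. For 30 min days 2, 3 and 4 this number was 2, 11 and 6, and for 2 hrs days 1, 2 and 3 it was 12, 15 and 3. Values of single genes are given for 30 min day 1 only, so they do not show the dependence on the other days.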

How the data were processed

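The authors deposited, for both channels of each array, the intensity of every spot and its local background from ImaGene 4.1, neither background-corrected nor normalized, and a table of log2 ratios that was checked to equal the raw laser over control ratio (to within 5.77e-15). Array titles gave the dye of the lesioned RNA, which matched the image name on 77 of 77 arrays. Intensities were background-corrected by normexp (offset 50) and loess-normalized in limma 3.58.1 under R 4.3.3, with 27 control names at weight 0; all arrays were used. Spots were averaged per gene, arrays per dye orientation, and both orientations per biological replicate. The contrast was fitted with lmFit and eBayes on 8 replicates of 4 time points (median residual SD 0.116, prior degrees of freedom 9.3), with Benjamini-Hochberg adjustment over 1504 genes. The number of replicates limits the precision; whether the replicates came from separate animals is not stated, so p-values measure the spread between these samples. The procedure was tested on simulated data, but a pass was required only for true differences larger than any main difference given here. No sequence or genome coordinate was used.

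The members, gene lists and rules were chosen with earlier results of these data known. The genes named are the reversing genes with the same sign in both orientations, the 10 largest rises and 10 largest falls among called genes with replicates apart and orientations of the same sign, up to 4 members of each list with the smallest p, FOS, GATA3, and genes the study names for these time points; of the reversing genes and list members, values are printed for a part only. Columns of per-sample values left unused numbered 0. Alternatives tried are given in the closing section.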

Additional observations from a re-analysis of the deposited data

Results flagged for a closer look

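The difference between 2 hrs and 30 min passed the adjusted threshold in limma for 2 genes, TGFB1I1 (log2 difference 0.63, adjusted p = 0.0443) and DUX4 (0.68, adjusted p = 0.0443). Each was below 0 in 2 of 2 replicates at 30 min and above 0 in 2 of 2 at 2 hrs. Neither name had a chicken gene of the same symbol. Over the alternatives TGFB1I1 ranged from -0.31 to 0.94 and DUX4 from 0.04 to 0.80, the lowest values being those with no array turned. Neither passed the adjusted threshold with the replicate block or with 1 value per day. Neither passed without 30 min day 1, 2 or 3 or without 2 hrs day 1 or 2. Other settings in which neither passed were plain background subtraction, scaling between arrays, equal weight for every array and only the 4 replicates of 30 min and 2 hrs. The same held for medians of arrays, removal of the trend with signal, and leaving out the first 30 min or the first 2 hrs replicate. These are not all such settings.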

How the results depend on the processing

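The replicate numbers gave no pairing: the deviations of the replicates from the mean of their time point correlated across genes at -0.15 between 30 min and 2 hrs. With the replicate block 193 genes were called, 124 reversed and 101 reversed with the same sign in both orientations, but 0 passed the adjusted threshold in place of 2; with the 2 hrs numbers crossed, an alternative chosen after seeing the data, 223 were called and 3 passed.

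Of the main counts, 204 called, 2 after adjustment, 128 reversing and 103 reversing with the same sign in both orientations, the following moved by over 1.5 times, and the cause was not tested. With plain background subtraction they were 121, 0, 78 and 60. Scaling between arrays gave 118, 0, 71 and 65. The authors' table, not centred, gave 596, 20, 352 and 349. With the lesioned RNA in Cy3 alone 322 were called and 7 passed adjustment, and in Cy5 alone 124, 1 and 62 reversing. A fold threshold of 1.5 left 11 called, 8 reversing and 7 in both orientations. The methods' t-test over arrays, against 0 at each time point, left 6 reversing, the same 6 in both orientations. A 2-sample t-test of the 2 hrs against the 30 min arrays left 1 after adjustment. Both tests take arrays of the same biological replicate as separate values. Single counts after adjustment were 7 without background correction, 10 with no array turned, 7 in each of the array-level fits with the replicate or the header day as a random block, and 0 with equal weight for every array or with only the 4 replicates of 30 min and 2 hrs. Of the alternatives chosen after seeing the data, 1 value per day gave 0 after adjustment, 54 reversing and 46 in both orientations, and medians of arrays and removal of the trend with signal each gave 0 after adjustment. Leaving out 1 replicate or 1 day gave 120 to 323 called, 0 to 20 after adjustment, 84 to 221 reversing and 57 to 183 in both orientations; the lowest and highest numbers called came without the first 30 min replicate (120, of which 75 were among the 204) and without the second 2 hrs replicate (323, with 158 of the 204).

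With no array turned, so that the difference is that of Cy5 over Cy3, the sign differed from the main one for TGFB1I1 (-0.31), HSHPX5 (-0.18), IGFBP1 (-0.20), SNAPC4 (-0.50), ETV5 (-0.14), TRIM (-0.15), GPA33 (0.23), NFIL3 (0.23), ATF7 (0.033), RNF2 (0.17), ARNT (0.053), EDR1 (0.36), BMI1 (0.53), MADH1 (-0.068), NAB1 (-0.41), EGR1 (0.71), DDIT3 (0.22), MXI1 (0.27), MAX (-0.17), PAX2 (0.30), IRF5 (0.0039), IRF3 (-0.34), BARHL1 (0.40), IHH (-0.23), CDX1 (0.20), CDX2 (-0.017), COPS5 (-0.20), SNAPC5 (-0.11), BCAN (-0.19), TCEB2 (-0.31), CRSP8 (-0.22), PPARD (-0.19) and ARNT2 (0.13). In the authors' table it differed for MADH1 (-0.093), ARC (-0.052), MAX (-0.023), IRF3 (-0.13), SNAPC5 (-0.081), PPARD (-0.054), FOS (-0.32) and GATA3 (-0.28), all of which lay above the median of that table, -0.34. On the arrays with the lesioned RNA in Cy5 alone it differed for BMI1 (0.028), EGR1 (0.11), PAX2 (0.014), IRF3 (-0.048) and BARHL1 (0.027). FOS and GATA3, near 0 in the main fit, also turned with the lesioned RNA in Cy3 alone (-0.20 and -0.20) and with no background correction (-0.010 and -0.042). They turned as well with median centring (-0.026 and -0.087) and with medians of arrays (-0.042 and -0.054). GATA3 turned with plain subtraction (-0.34) and with 1 value per day (-0.014), and FOS with the trend on signal removed (-0.070). Without 1 replicate or 1 day FOS ranged from -0.12 to 0.16 and GATA3 from -0.16 to 0.17. No other gene with a printed difference changed direction under an alternative. Of 27 genes tracked by name alone (the rest of the 40 that crossed 0 in each orientation, and SOX11), 21 changed direction with no array turned, 12 in the authors' table, 2 with plain subtraction (FACTP140 and KIAA0972) and 1 with Cy3 alone (SOX11). Signal over local background at 2 hrs, 3.06 in the median array, and 2 replicates a time point limit what can be seen.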
